A study of Homo sapiens with 12 samples.

Results

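The mRNAs of the transcription machinery were followed in NOMO-1, a human acute monocytic leukaemia cell line, while transcription was stopped with actinomycin D. The members were the genes whose symbols begin with POLR1, POLR2, POLR3, MED, TAF, GTF2 or GTF3 followed by the numbering of the family, which gave 99 of 9529 genes in the table. Most of them encode subunits of RNA polymerases I, II and III, of the Mediator complex and of the general transcription factors. Of the 99, 8 match by symbol only and belong to none of these complexes: GTF2I, GTF2IRD1, GTF2IRD2B, 3 pseudogenes of GTF2I, TAF15 and the antisense RNA MED4-AS1. Of the others, TAF5L is grouped with the SAGA complex, and POLR2J4, a copy of POLR2J, has no coding transcript in the annotation used.

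Cells carried lentivirus expressing hairpins against ALKBH5 (shALKBH5) or shNS, the hairpin set against them, and had been selected with puromycin in both arms. Poly(A) RNA was sequenced at 0, 8 and 12 h of actinomycin D, a DNA-binding drug that blocks RNA polymerases, so each of the 6 groups held 2 libraries and there were 12 in all. The knockdown arm had 1 library of each of 2 hairpins at each time, and these are named line D and line E here by the letter their columns carry. The shNS arm had 2 replicates. The sources do not pair the letters with the hairpin numbers, and nothing says that replicates were separate cultures, so p-values measure the spread between these libraries.

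RNA polymerase II makes mRNA, RNA polymerase I makes the large ribosomal RNA precursor, and RNA polymerase III makes tRNA and 5S ribosomal RNA. Each is a core of large catalytic subunits with small subunits, some of them common to all 3 enzymes. TFIID, built of TBP and TAF proteins, recognises RNA polymerase II promoters and is joined by TFIIA, TFIIB, TFIIE, TFIIF and TFIIH, SL1 serves RNA polymerase I, and TFIIIA and TFIIIC serve RNA polymerase III. Mediator bridges activators and RNA polymerase II through its head, middle and tail, joined by a detachable kinase module. ALKBH5 removes the m6A mark from RNA.

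At 0 h ALKBH5 itself had a signal of 25.4 in line D and 21.2 in line E, against 84.3 and 78.6 in shNS replicates 1 and 2. Its knockdown minus shNS difference across times was −2.46 (log2). The values in the table are a signal whose unit is not stated and whose medians over 46 ERCC spike-in RNAs lay between 29.9 and 33.1 in every library. Their sum over genes was 826000 to 953211 at 0 h, 390103 to 580217 at 8 h and 143765 to 193639 at 12 h. Read depth is unknown, and in bulk RNA fewer cells and less RNA per cell cannot be told apart. Of 13 monocytic leukaemia markers 10 were listed, with a summed signal at 0 h of 2698 to 7161, while CD3E, MS4A1 and the erythroid, epithelial and megakaryocyte markers were not in the table.

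Loss of an mRNA was read as the percent left, the signal at 8 or 12 h over the 0 h signal of the same line. In shNS the 0 h library was the one with the same replicate number. At 8 h the median member kept 20.04% in line D and 29.1% in line E, against 35.7% and 36.9% in the shNS replicates. Over all genes those medians were 23.9% and 33.6%, against 42.2% and 41.1%. At 12 h the median member kept 9.14% and 8.94% in lines D and E, against 10.7% and 11.7% in the shNS replicates, and the median gene kept 10.9% and 10.7%, against 11.9% and 12.9%. Behind these medians lay a wide range by subunit, from 5.92% for GTF2B to 92.9% for POLR2L at 8 h in shNS replicate 2.

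On the deposited scale, limma on log2(signal + 1) called 89 of 99 members lower by 8 h in shNS, beside 82.2% of all genes, and all 99 lower by 12 h, beside 99.5% of all genes (Benjamini-Hochberg adjusted p under 0.05, as throughout). Since nearly every mRNA fell, change was also taken relative to the median gene by scaling each library to its median of ratios. Relative to the median gene, 9 members were called higher and 36 lower by 8 h in shNS, beside 18.9% and 23.6% of all genes. By 12 h in shNS the counts were 13 higher and 39 lower, beside 24.6% and 27% of all genes. In the knockdown arm 13 were higher and 34 lower by 8 h, beside 21.3% and 23.7% of all genes, and 12 were higher and 36 lower by 12 h, beside 22.1% and 24.2%. The share of members called lower was thus above that of all genes in both arms and at both times, and the share called higher below it. The 8 h count in shNS, 45 members with all libraries, fell when any one shNS library at 0 or 8 h was left out. Each such refit leaves 1 library in a group, which by itself widens the standard error. It therefore cannot show whether the count rested on a single library. With the line or replicate number as a block, 69 members were called by 8 h in shNS, beside 69.9% of all genes, and 74 by 12 h in knockdown, beside 70.8%.

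**Figure D1:**
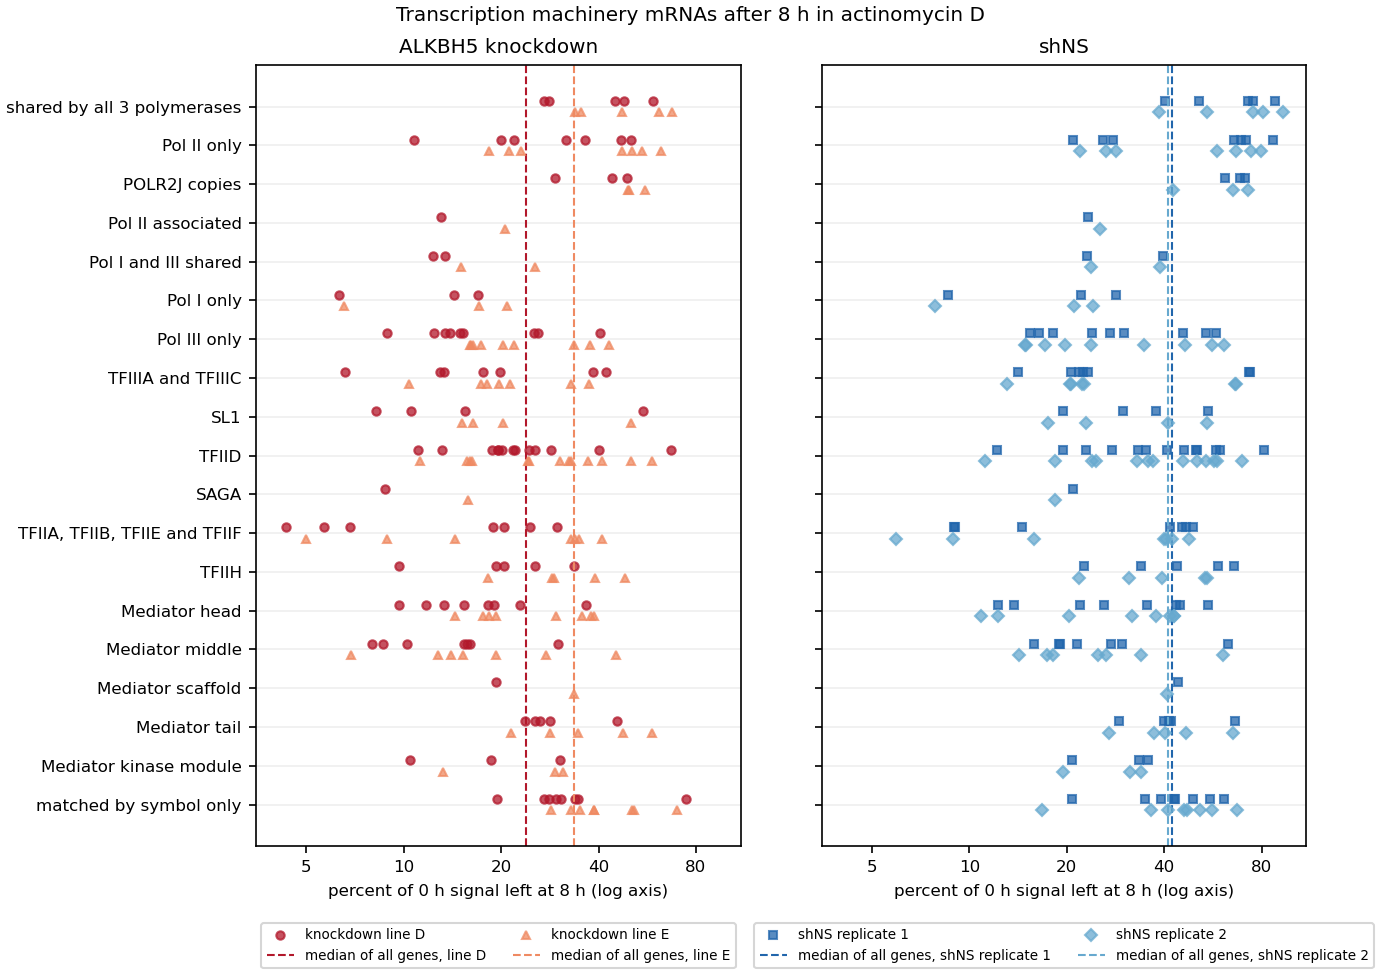
Percent of the 0 h signal left at 8 h (horizontal, log axis) for each of the 99 members (points) by complex (vertical), in ALKBH5 knockdown lines D and E on the left and shNS replicates 1 and 2 on the right, with dashed lines at the median of all 9529 genes in each line. Subunits shared by the 3 polymerases lie right of the median gene, apart from POLR2H in shNS, and RNA polymerase I subunits lie left of it in every line.

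Calls in the 2 arms overlapped, for members as for genes at large. Of the members called lower relative to the median gene by 12 h, 34 were called in both arms, which is 94.4% of the knockdown calls and 87.2% of the shNS calls, beside 85.8% and 76.7% over all genes. Of those called higher by 12 h, 8 were called in both, 66.7% of the knockdown calls and 61.5% of the shNS calls, beside 83.6% and 75.3% over all genes, and at both times 0 members were called in opposite directions.

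Subunits of RNA polymerase II differed in loss relative to the median gene, though all of them fell by 12 h in shNS. The 5 subunits common to all 3 polymerases at 8 h had a median of 44.9% left in line D and 47.2% in line E, against 72.7% and 75.1% in shNS. Of these 5, POLR2E, POLR2F and POLR2L were called higher than the median gene by 12 h in shNS and 0 were called lower. Over all genes the shares called were 24.6% and 27%. POLR2E, which encodes RPB5, had signals of 72.2, 34.7 and 13.2 in line D and 66.4, 40.8 and 12.6 in line E at 0, 8 and 12 h. In shNS they were 55.6, 40.4 and 15.2 in replicate 1 and 44.8, 36.3 and 14.4 in replicate 2. By 12 h POLR2E thus had 18.2% and 18.9% left in lines D and E, against 27.4% and 32.0% in shNS, more than the median gene in all 4 lines. Relative to the median gene the change by 12 h was 0.75 in knockdown and 1.22 (standard error 0.11, limma adjusted p = 0.000109) in shNS.

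POLR2L, which encodes RPB10, kept 59.1% and 67.6% at 8 h in lines D and E, against 75.3% and 92.9% in shNS. At 12 h it had 27.1% and 21.7% left in lines D and E, against 27.0% and 31.3% in shNS. Its relative change by 12 h was 1.11 in knockdown and 1.14 in shNS, and the shNS call was lost without any one of the 6 shNS libraries (adjusted p 0.0589 to 0.152). POLR2F, RPB6, kept 44.9% and 47.2% at 8 h in lines D and E, against 87.9% and 75.1% in shNS. The other shared subunits, POLR2H (RPB8) and POLR2K (RPB12), were not called in either arm at either time.

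Of the 7 members found in RNA polymerase II alone, POLR2G and POLR2I were called higher and POLR2A, POLR2B and POLR2D lower than the median gene by 12 h in shNS. With 7 members, beside 24.6% and 27% of all genes, these counts are not read as a trait of the enzyme. POLR2G, the stalk subunit RPB7, kept 36.4% and 62.4% at 8 h in lines D and E, against 86.5% and 74.3% in shNS. At 12 h it kept 11.2% and 17.9% in lines D and E, against 30.5% and 27.1% in shNS, so the arms did not overlap at either time. Both knockdown lines lay below both shNS replicates in this way in 82.5% of all genes at 8 h and 41.2% at 12 h. The relative change of POLR2G by 12 h was 0.37 in knockdown, where it was not called. In shNS the change was 1.19 (standard error 0.24, limma adjusted p = 0.00305).

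POLR2D encodes RPB4, the partner of POLR2G in the same stalk. It kept 10.7% and 21.1% at 8 h in lines D and E, against 20.9% and 22.0% in shNS. By 12 h it had 4.11% and 5.28% left in lines D and E, against 4.63% and 5.33% in shNS, below the median gene in all 4 lines. Its relative change by 12 h was −1.14 in knockdown and −1.22 in shNS (standard error 0.13, limma adjusted p = 0.000184). The partners of the stalk were therefore called in opposite directions in shNS.

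POLR2A and POLR2B encode the large catalytic subunits RPB1 and RPB2. POLR2A had signals of 101, 22.3 and 9.11 in line D and 71.0, 16.3 and 4.71 in line E at 0, 8 and 12 h. In shNS it had 63.1, 16.3 and 4.24 in replicate 1 and 55.2, 15.6 and 3.95 in replicate 2. At 8 h this left 22.0% and 22.99% in lines D and E, against 25.9% and 28.4% in shNS, and POLR2B kept 20.04% and 18.4%, against 27.7% and 26.5%. By 12 h in shNS their relative changes were −0.78 for POLR2A (limma adjusted p = 0.0447) and −0.94 for POLR2B (limma adjusted p = 0.0283), and neither was called in knockdown. The POLR2A call was lost without any one shNS library (adjusted p 0.0688 to 0.144) or the 0 h library of line E (0.0506), and the POLR2B call without either shNS library at 0 or 12 h (0.091 to 0.117). POLR2C and POLR2J, partners in the assembly platform of the enzyme, kept 31.8% and 54.6% (POLR2C) and 50.5% and 50.6% (POLR2J) at 8 h in lines D and E, against 65.8% and 58.2% (POLR2C) and 71.6% and 79.5% (POLR2J) in shNS.

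**Figure D2:**
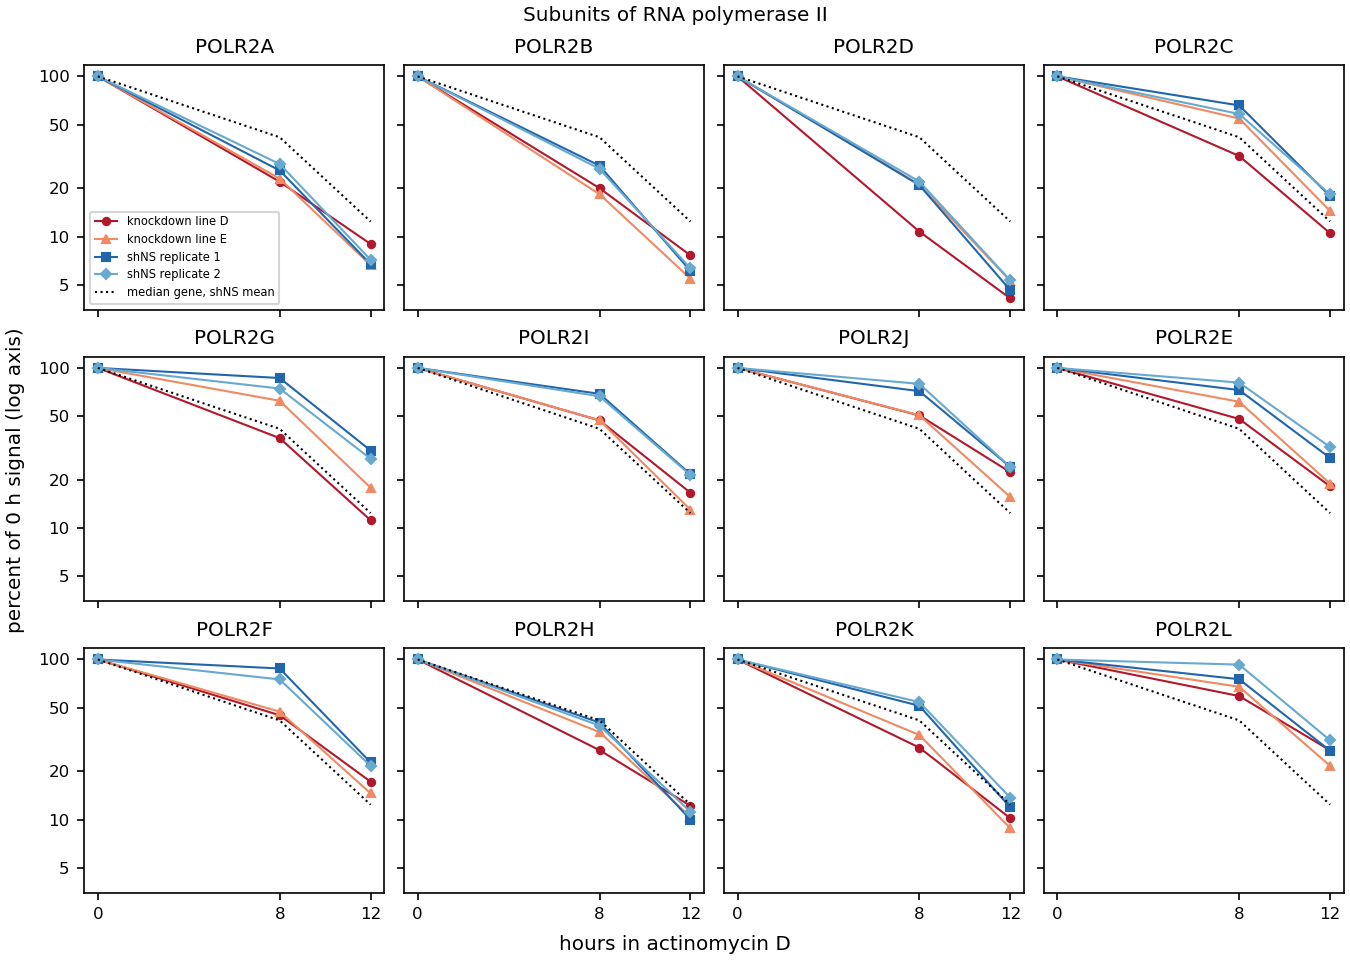
Percent of the 0 h signal (vertical, log axis) at 0, 8 and 12 h in actinomycin D (horizontal) for 12 RNA polymerase II subunits, in knockdown lines D and E and shNS replicates 1 and 2, with the median gene (mean of the shNS replicates) dotted. POLR2A, POLR2B and POLR2D run below the dotted line in all 4 lines at 8 h, and POLR2E, POLR2F and POLR2L run above it.

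As a sequence feature that the choice of members did not use, the 3′ UTR of each member's GENCODE 29 transcript (GRCh38) was searched on the transcript strand for UAUUUAU, the AU-rich heptamer of many short-lived mRNAs. This pair was picked because both carry repeated heptamers and yet differ in loss. Each line is 30 bases of the 3′ UTR, 5′ to 3′ in DNA letters, with heptamers in capitals.
POLR2D: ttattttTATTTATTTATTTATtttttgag
POLR3K: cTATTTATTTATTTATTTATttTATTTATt
POLR2D lies at chr2:127843551-127858157 on the minus strand and has 4 heptamers in the 3′ UTR, overlapping ones included. POLR3K, a small RNA polymerase III subunit, lies at chr16:46407-53628 on the minus strand and has 9. While POLR2D lay below the median gene of every line at 8 h, POLR3K kept 25.9% and 33.7% in lines D and E, against 45.6% and 46.2% in shNS, above the median gene of every line. At 12 h POLR3K had 6.62% and 8.47% left in lines D and E, against 13.0% and 17.0% in shNS. Its relative change by 12 h was −0.50 in knockdown, where it was called lower (limma adjusted p = 0.0377), and 0.25 in shNS, where it was not called. At least 1 heptamer was found in 26 of 89 members with a 3′ UTR (29.2%) and in 31.2% of 8686 genes. Members with and without it had medians of 18.8% and 20.04% left at 8 h in line D and 26.9% and 27.5% in line E. In shNS these were 34.2% and 33.8% in replicate 1 and 32.7% and 34.6% in replicate 2. Over all genes those medians were 18.7% with and 26.6% without the heptamer in line D, and 34.2% and 46.2% in shNS replicate 1. Genes with the heptamer have longer 3′ UTRs (median 2456 bases against 692), so length and motif cannot be told apart in this comparison. Counting only the last 300 bases, in 7143 genes with 3′ UTRs that long, median lengths were closer, 1524 bases with and 1396 without. Medians left at 8 h were then 19.5% and 22.2% in line D and 28.8% and 32.0% in line E. In shNS they were 35.5% and 40.1% in replicate 1 and 34.8% and 39.4% in replicate 2. Genes without it there may hold it elsewhere in the 3′ UTR, and the part of length was not tested. GGACU, one form of the m6A consensus, was found in the 3′ UTR of 61.8% of members and 58.3% of genes. Members with and without it had medians of 18.3% and 24.5% left at 8 h in line D and 21.3% and 31.6% in line E, against 28.4% and 40.1% in shNS replicate 1 and 31.1% and 39.4% in replicate 2. Over all genes those medians were 21.5% with and 26.3% without GGACU in line D, and 38.4% and 46.2% in shNS replicate 1. Members with GGACU also have longer 3′ UTRs (median 1348 bases against 393.5), so here too length and motif cannot be told apart.

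RNA polymerase I mRNAs were lost faster than the median gene. All 3 subunits specific to it, POLR1A, POLR1B and POLR1E, were called lower by 8 and 12 h in shNS, and in knockdown POLR1B and POLR1E were. POLR1B, the second-largest subunit, had signals of 49.5, 3.12 and 1.52 in line D and 33.0, 2.16 and 1.10 in line E at 0, 8 and 12 h. In shNS they were 29.5, 2.53 and 0.577 in replicate 1 and 27.3, 2.13 and 0.693 in replicate 2. Only 6.31% and 6.54% was left at 8 h in lines D and E, against 8.57% and 7.82% in shNS, which placed POLR1B between percentiles 0.27 and 1.85 of all genes over the 4 lines and both times. Its relative change by 12 h was −1.52 in knockdown and −1.99 in shNS (standard error 0.22, limma adjusted p = 0.000189). POLR1A, the largest subunit, kept 17.0% and 17.1% at 8 h in lines D and E, against 22.1% and 21.0% in shNS.

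POLR1C and POLR1D, which pair in the assembly platform of RNA polymerases I and III, differed. POLR1C kept 13.4% and 14.996% at 8 h in lines D and E, against 23.05% and 23.7% in shNS, and was called lower relative to the median gene in both arms at both times. POLR1D kept 12.3% and 25.4%, against 39.6% and 38.8%, and was not called in either arm. The factor SL1, which brings RNA polymerase I to ribosomal DNA, was split as well. TAF1A and TAF1B were called lower in both arms by 12 h, while TAF1C was called higher in both, with 54.9% and 50.5% left at 8 h in lines D and E, against 54.6% and 54.1% in shNS.

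By 12 h 27% of all genes were called lower relative to the median gene in shNS and 24.2% in knockdown. Of 9 subunits specific to RNA polymerase III, 5 were called lower in this way in shNS and 6 in knockdown. Their median percent left at 8 h was 14.9% and 20.3% in lines D and E, against 27.2% and 23.8% in shNS. POLR3D (RPC4) fell most in shNS, to 15.4% and 14.8% at 8 h, against a median gene of 42.2% and 41.1%, and had 14.9% and 16.3% left in lines D and E. Its relative change by 12 h was −0.68 in knockdown and −1.47 in shNS (limma adjusted p = 0.000355). POLR3A, the largest subunit, changed by −0.64 in knockdown and −0.49 in shNS, and its shNS call was lost without any one shNS library (adjusted p 0.056 to 0.160). POLR3G and POLR3GL encode alternative forms of the RPC7 subunit. POLR3G kept 25.3% and 37.8% at 8 h in lines D and E, against 53.9% and 56.0% in shNS. POLR3GL had 40.5% and 43.0% left at 8 h in lines D and E, against 57.7% and 61.3% in shNS. Up to 21.5% of the 50-base stretches of POLR3GL occur in other annotated genes, so part of its signal may come from reads they share.

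TFIIIC, which binds inside tRNA genes, was lost in the same manner. All of GTF3C1, GTF3C2, GTF3C3, GTF3C4 and GTF3C5 were called lower relative to the median gene in both arms at both times, with relative changes by 12 h in shNS of −1.33 for GTF3C3, −1.30 for GTF3C4 and −0.92 for GTF3C1. The smallest subunit, GTF3C6, was not called and kept 38.5% and 32.8% at 8 h in lines D and E, against 72.9% and 66.8% in shNS. Nor was GTF3A, the 5S gene factor TFIIIA, with 42.3% and 37.4%, against 73.5% and 66.3%. By 8 h in shNS their relative changes were 0.76 for GTF3C6 (standard error 0.58) and 0.78 for GTF3A (0.47). The standard errors come from a spread common to both arms, so the gap between lines D and E enters them. A missing call in shNS is therefore not read as no difference from the median gene.

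Among the factors of RNA polymerase II promoters, GTF2B had the lowest percent left of all members at 8 h in lines D and E and in shNS replicate 2, while POLR1B had the lowest in shNS replicate 1. GTF2B, which encodes TFIIB, the factor that positions RNA polymerase II at the start site, had signals of 36.3, 1.57 and 1.24 in line D and 31.8, 1.58 and 1.04 in line E at 0, 8 and 12 h. In shNS they were 26.8, 2.41 and 0.408 in replicate 1 and 22.5, 1.33 and 0.469 in replicate 2. At 8 h it had 4.32% and 4.99% left in lines D and E, against 8.98% and 5.92% in shNS. At 12 h the order of the arms was the other way, 3.41% and 3.27% in lines D and E against 1.52% and 2.08% in shNS. Relative to the median gene it changed by −1.44 in knockdown and −2.12 in shNS by 12 h (standard error 0.15, limma adjusted p = 5.86e-05). A signal near 1 is close to the added pseudocount of 1, which makes such falls on the log2 scale smaller than the percent left implies.

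GTF2E1, the large subunit of TFIIE, kept 5.66% and 8.88% at 8 h in lines D and E, against 9.05% and 8.92% in shNS. Its partner GTF2E2 kept 18.9% and 34.9%, against 41.6% and 39.99%. The subunits of TFIIA were unequal as well, with 6.83% and 14.4% left of GTF2A1 in lines D and E, against 14.6% and 15.8% in shNS, and 24.6% and 41.0% left of GTF2A2, against 49.0% and 47.7%. GTF2B, GTF2E1 and GTF2A1 were called lower relative to the median gene in both arms at both times, and the other 4 members of these factors, including both TFIIF subunits GTF2F1 and GTF2F2, were not called.

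Of 13 TFIID members, 3 were called higher and 4 lower relative to the median gene by 12 h in shNS, and 2 higher and 4 lower in knockdown. Over all genes 24.6% were called higher and 27% lower in shNS, and 22.1% and 24.2% in knockdown. With 13 members these counts are not read as a trait of TFIID. TAF10, a histone-fold subunit also found in SAGA, kept 67.1% and 58.5% at 8 h in lines D and E, against 81.5% and 69.7% in shNS, and changed by 1.14 in knockdown and 1.04 in shNS by 12 h (limma adjusted p = 0.00468 in shNS). TAF6, a core subunit, changed by 0.78 in knockdown and 0.84 in shNS. TAF4, another core subunit, kept 11.1% and 11.3% at 8 h in lines D and E, against 12.1% and 11.2% in shNS, and TAF8 kept 19.5% and 16.0%, against 19.5% and 18.4%. TAF1, the largest TAF, had 22.0% and 33.0% left, against 46.1% and 45.6%, and was not called. Of the 50-base stretches of TAF10, 31.4% occur in another annotated gene, so its reads may be shared.

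In TFIIH, which opens promoter DNA and phosphorylates the RNA polymerase II tail, GTF2H5 was called higher than the median gene in knockdown by 8 and 12 h and in shNS by 8 h. GTF2H1, GTF2H3 and GTF2H4 were not called in either arm at either time, with GTF2H1 at 20.5% and 29.1% left at 8 h in lines D and E, against 43.8% and 39.5% in shNS. GTF2H2C_2, a copy of GTF2H2, was called lower in both arms at both times, and its reads may be shared with the other copies. Of GTF2H4, 93.7% of 50-base stretches occur in the annotation of VARS2, so its values are uncertain.

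Among 24 Mediator members, 2 were called higher and 8 lower relative to the median gene by 12 h in shNS, and 1 higher and 8 lower in knockdown. Over all genes 24.6% were called higher and 27% lower in shNS, and 22.1% and 24.2% in knockdown. Of the 7 members in the middle module, MED1, MED4, MED7 and MED21 were called lower by 12 h in both arms. Its median percent left at 8 h was 15.4% and 15.3% in lines D and E, against 21.6% and 24.9% in shNS. MED4 kept 10.2% and 15.3%, against 18.9% and 17.4%, and MED7 kept 8.63% and 6.86%, against 15.8% and 14.2%. MED1, the subunit through which nuclear receptors bind Mediator, kept 15.6% and 19.2%, against 27.5% and 26.4%. MED10, in the same module, kept 30.01% and 45.2%, against 63.0% and 60.7%, and was called higher in shNS.

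In the head, MED8 kept 9.65% and 14.4% at 8 h in lines D and E, against 12.2% and 10.8% in shNS, and its relative change by 12 h was −0.92 in knockdown and −1.51 in shNS (limma adjusted p = 0.000126). MED27, assigned to the head or upper tail, changed by −0.59 in knockdown and −1.46 in shNS by 12 h (limma adjusted p = 0.00017 in shNS). Of the 5 tail members 0 were called lower by 12 h in either arm, beside 24.2% of all genes in knockdown and 27% in shNS, and MED15 was called lower by 8 h in shNS (−0.50, limma adjusted p = 0.0365). MED24 was called higher by 12 h in both arms, with relative changes of 0.90 in knockdown and 0.92 in shNS. MED24 had 45.5% and 58.3% left at 8 h in lines D and E, against 66.4% and 65.4% in shNS. Of the kinase module, MED13 was called lower in both arms (−0.89 in knockdown and −0.85 in shNS by 12 h), whereas MED12 and the MED13 paralog MED13L were not called. MED14, the scaffold that joins the modules, kept 19.3% and 33.6% at 8 h in lines D and E, against 44.0% and 40.8% in shNS, and was not called.

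**Figure D3:**
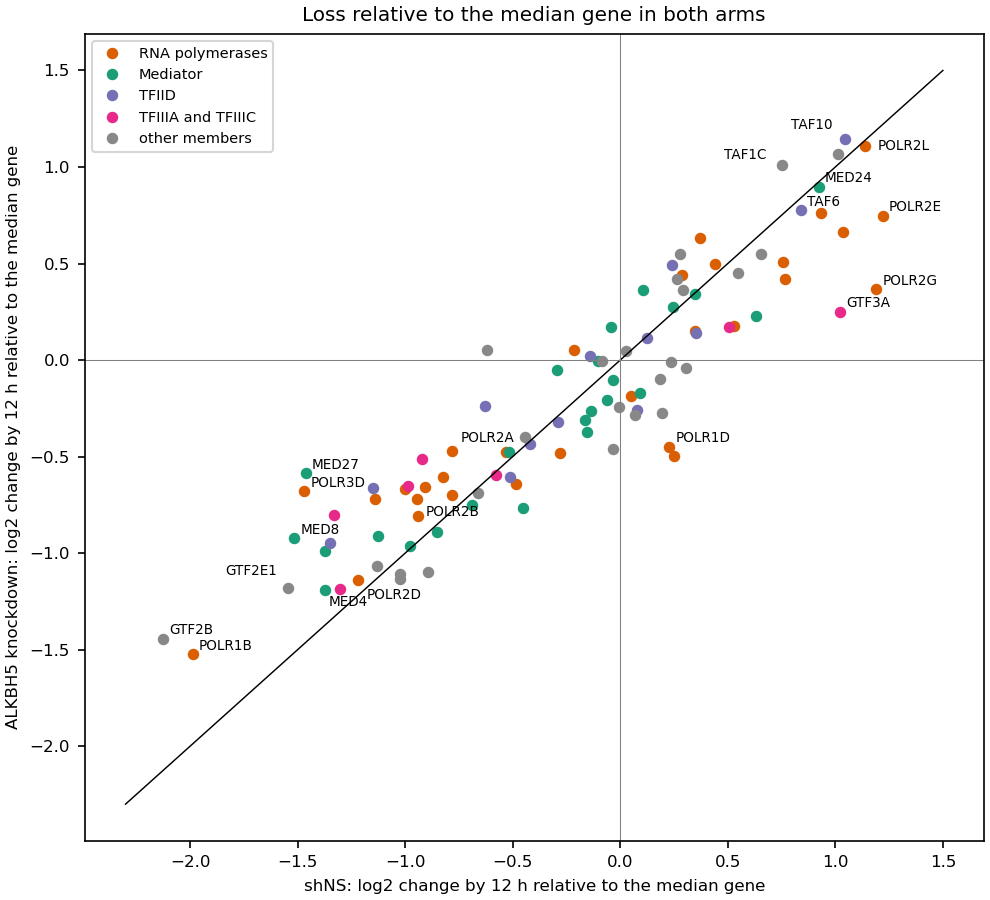
Log2 change by 12 h relative to the median gene in knockdown (vertical) against shNS (horizontal) for the 99 members (points, coloured by complex), with the diagonal of equal change. GTF2B and POLR1B lie lowest in both arms, at −1.44 and −1.52 in knockdown and −2.12 and −1.99 in shNS, and POLR2E, POLR2L and TAF10 lie at the upper right.

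Transcription machinery outside the symbol rule was counted from a list of 50 genes, of which 46 were in the table. By 12 h, 3 of 46 were called higher and 21 lower relative to the median gene in shNS, and 4 higher and 20 lower in knockdown. Over all genes 24.6% were called higher and 27% lower in shNS, and 22.1% and 24.2% in knockdown. TFIIH has a kinase subcomplex of CDK7, CCNH and MNAT1, and all 3 were called lower in both arms. CDK7 kept 6.90% and 8.37% at 8 h in lines D and E, against 10.4% and 8.62% in shNS, below each of the 5 TFIIH members above in every line. CCNT1, the cyclin of the elongation kinase P-TEFb, kept 8.28% and 11.5%, against 14.4% and 15.1%, and TBP, the DNA-binding subunit of TFIID, kept 9.90% and 18.2%, against 24.3% and 25.5%. The genes called higher in both arms by 12 h were SUPT4H1, SUPT5H and TCEA1, which act in elongation. Other elongation factors of the list, among them LEO1, PAF1, CTR9, CDC73 and NELFA, were called lower in both arms by 12 h.

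Before transcription was stopped, few members passed the adjusted threshold between knockdown and shNS. At 0 h 1 of 99 members was called higher in knockdown and 0 lower, beside 1.33% and 0.136% of all genes (1.47% in either direction), and 24 members had an unadjusted p under 0.05, beside 22.2% of all genes. No member was called without any one shNS library at any time, without the 0 h library of line D or with median-of-ratios scaling. Leaving out the 0 h library of line E, or any 8 or 12 h knockdown library, gave more called members than all libraries did. Each such refit leaves 1 library in a group, and its share over all genes is not given here. It is not read as a result about the members.

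Both knockdown lines lay above both shNS replicates at 0 h in 53 members, against 46.4% of all genes, and below them in MED15 and POLR1D, against 6.88%. The median difference at 0 h was 0.29 over members and 0.23 over all genes, so members stood higher in knockdown by nearly the same amount as genes did at large. Among the largest subunits, POLR1A had a signal of 40.9 and 27.1 in lines D and E, against 21.0 and 20.1 in shNS, and POLR3A had 22.2 and 18.4, against 14.97 and 15.1. For both, as for POLR2A and POLR2B, all knockdown values were above all shNS values without a call.

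Averaged over the 3 times, with each line entered once, 4 members were called higher and 2 lower in knockdown, beside 2.72% and 2.42% of all genes (5.14% in either direction). MED27 had signals of 32.1, 4.28 and 1.97 in line D and 31.2, 5.99 and 2.39 in line E at 0, 8 and 12 h. In shNS they were 19.0, 2.61 and 0.577 in replicate 1 and 19.2, 2.35 and 0.713 in replicate 2, below both knockdown lines at every time. The difference was 0.82 (standard error 0.20, limma adjusted p = 0.0114), and 34.9% of its 50-base stretches also occur in the pseudogene CRSP8P.

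TAF13, a TFIID histone-fold protein that pairs with TAF11, had signals of 36.1, 8.79 and 5.91 in line D and 19.9, 6.05 and 3.04 in line E at 0, 8 and 12 h. In shNS they were 10.7, 6.17 and 1.57 in replicate 1 and 10.3, 5.91 and 1.63 in replicate 2. The arms were apart at 0 and 12 h and overlapped at 8 h, and the difference was 0.85 (limma adjusted p = 0.0186). POLR2L differed by 0.90 (adjusted p = 0.0301), from signals at 0 h of 67.2 and 35.8 in lines D and E, against 25.1 and 18.9 in shNS.

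POLR1D and TAF1D, both of the RNA polymerase I apparatus, were the members called lower. POLR1D had signals of 43.8, 5.39 and 2.86 in line D and 77.2, 19.6 and 7.09 in line E at 0, 8 and 12 h. In shNS they were 98.2, 38.9 and 13.5 in replicate 1 and 80.5, 31.2 and 12.3 in replicate 2. Every knockdown value was below both shNS values of its time, with line D lowest, and the difference was −1.19 (standard error 0.27, limma adjusted p = 0.00756). TAF1D had 64.6, 9.97 and 7.06 in line D and 52.4, 10.7 and 5.34 in line E, against 85.9, 32.5 and 11.3 in shNS replicate 1 and 59.0, 24.2 and 10.6 in replicate 2. Its arms overlapped at 0 h and were apart at 8 and 12 h, with a difference of −0.80 (limma adjusted p = 0.0379).

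All 6 calls were lost with either the 0 h or the 8 h time point left out and with median-of-ratios scaling, where 0 members were called. They were also lost without either shNS replicate, which leaves 1 line in that arm. Leaving out line E gave more calls than all lines together did. That fit leaves 1 line in the knockdown arm, and its share over all genes is not given here. Without line D, TAF13 (0.50, adjusted p = 0.0673), POLR2L (0.45, adjusted p = 0.188) and POLR1D (−0.59, adjusted p = 0.0617) were not called.

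**Figure D4:**
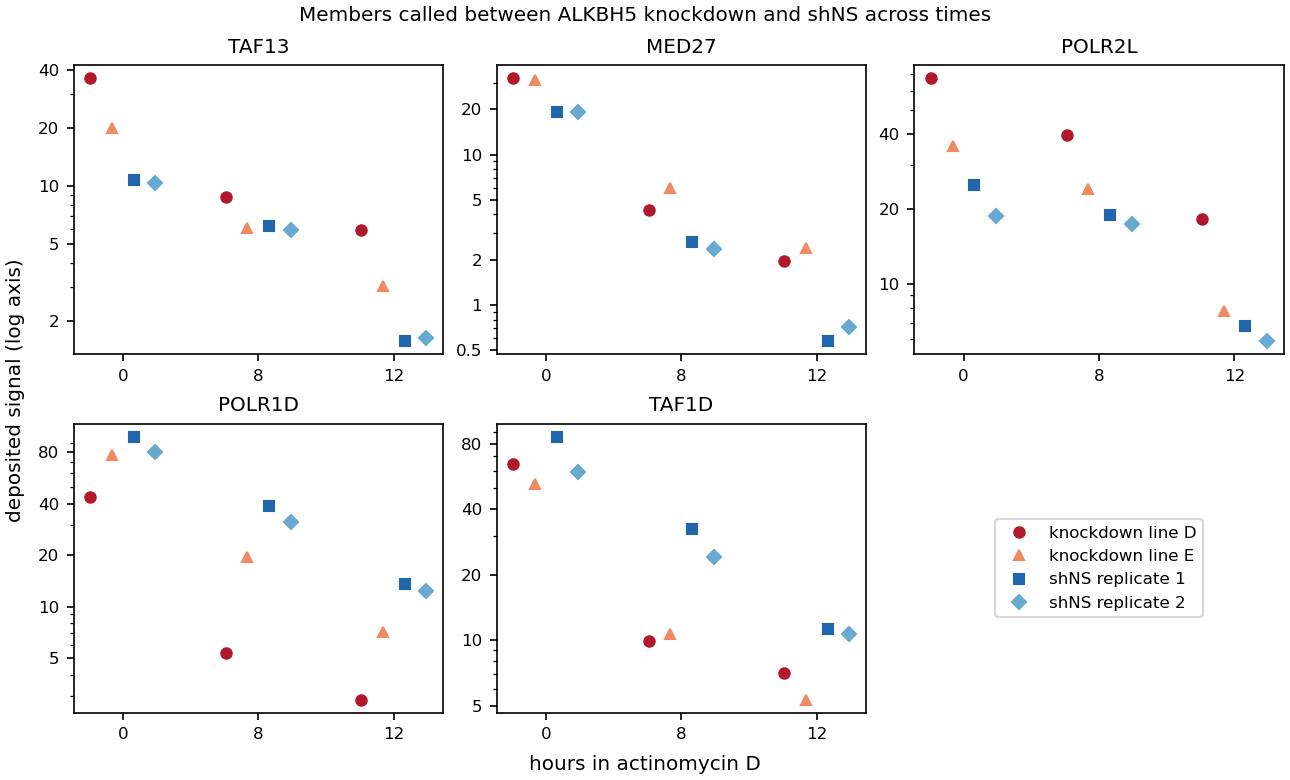
Deposited signal (vertical, log axis) at 0, 8 and 12 h (horizontal) of 5 of the 6 members called between knockdown and shNS across times, in knockdown lines D and E and shNS replicates 1 and 2. MED27 and POLR2L lie above shNS in both knockdown lines at each time, and POLR1D lies below it.

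Loss itself was compared between arms by the difference of the 8 or 12 h change. No member was called at 8 h by limma on log2(signal + 1), beside 0% of all genes, although 18 members had an unadjusted p under 0.05, beside 16.4% of all genes, each with a larger fall in knockdown, as in 16.3% of all genes. The largest of these differences were −1.07 for TAF1D (standard error 0.34) and −1.04 for TAF13 (0.42). The median difference was −0.51 over members and −0.48 over all genes. More members were called with line D alone as the knockdown than with line E alone. Each such fit leaves 1 library in each knockdown group, and its share over all genes is not given here. The order of the lines is therefore not read as a result about the members. At 12 h 0 members were called, beside 0% of all genes, and 4 had an unadjusted p under 0.05, beside 3.54% of all genes, among them POLR2G (−0.96, standard error 0.37), POLR3K (−0.91, 0.28) and POLR2E (−0.65, 0.27). Here too line D alone gave more calls than line E alone. With the line or replicate number as a block, 30 members were called at 8 h, beside 26.2% of all genes, and 3 at 12 h, beside 2.33%. With the block and median-of-ratios scaling together the counts were 0 at 8 h, beside 0.021% of all genes, and 2 at 12 h, beside 3.52%.

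At 8 h, percent left was lower in both knockdown lines than in both shNS replicates for 84 of 99 members, beside 82.5% of all genes, and higher for MED4-AS1 alone, beside 0.903%. At 12 h it was lower for 43, beside 41.2%, and higher for 14, beside 12.1%. Those 14 included GTF2B, GTF2E1, MED8, MED27, POLR1B, POLR3D and TAF4, each of which was called lower relative to the median gene by 12 h in shNS. Divided by the median gene of the same library, percent left at 12 h was higher in both knockdown lines for 25 members, beside 27.6%, and lower for 23, beside 23.7%. These shares were close to those of all genes.

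The hairpin lines also differed from each other. For line D minus line E over the 3 times, 16 members were called higher and 9 lower, beside 13.5% and 14.5% of all genes. The test sets 1 line against 1 line at 3 times, so it compares these libraries and not the hairpins. Of the 7 subunits specific to RNA polymerase II, POLR2A, POLR2B, POLR2I and POLR2J were called higher in line D, whereas POLR2C (−0.41) and POLR2G (−0.42) had negative differences without a call. Leaving out the 8 h library of line D gave more calls than all libraries did, and leaving out that of line E gave fewer. Their shares over all genes are not given here.

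GTF3C6, the smallest TFIIIC subunit, had a signal of 105, 40.3 and 15.8 in line D at 0, 8 and 12 h, against 47.8, 15.7 and 4.78 in line E, a difference of 1.32 (standard error 0.19, limma adjusted p = 1.58e-10). MED20, a head subunit of Mediator, had 148, 17.3 and 7.26 in line D, against 266, 48.7 and 15.6 in line E, a difference of −1.10 (limma adjusted p = 1.80e-07). In shNS replicates 1 and 2 its 0 h signals of 189.8 and 179.7 lay between the 2 lines. MED25, a tail subunit bound by viral and cellular activators, had 30.5 in line D at 0 h, against 51.2 in line E.

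**Figure D5:**
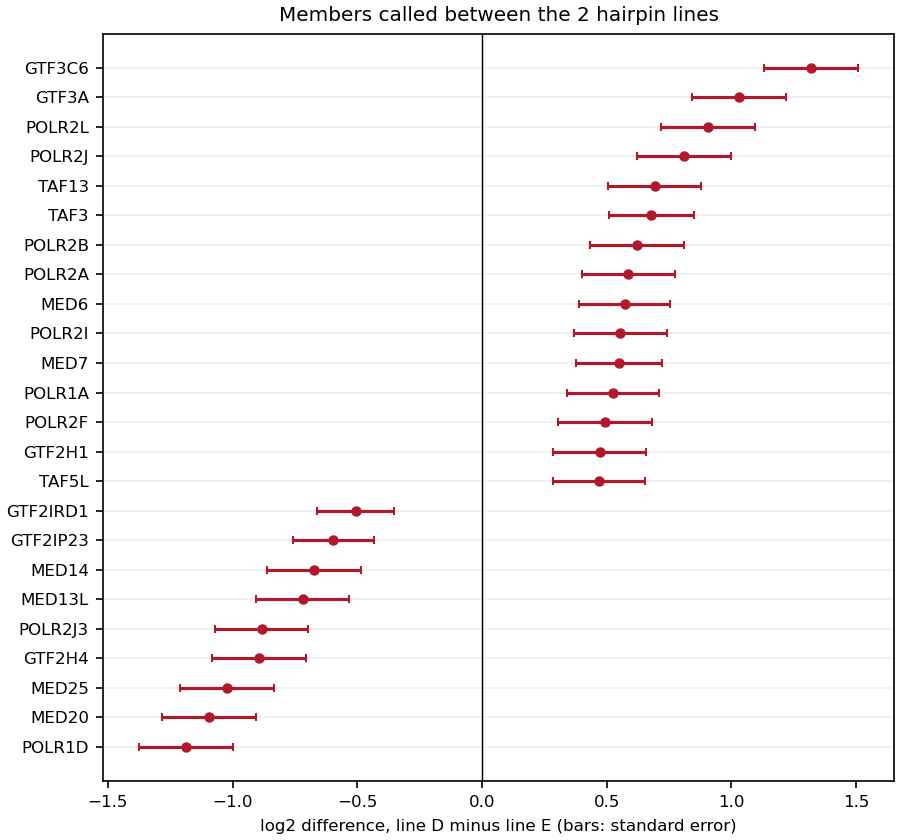
Log2 difference of line D minus line E over the 3 times (horizontal, points with standard errors) for 24 of the 25 members called between the hairpin lines (vertical). GTF3C6 lies highest at 1.32 and POLR1D lowest at −1.19.

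Near-identical copies limit several values. For POLR2J2 and POLR2J3 100% of 50-base stretches also occur in other annotated genes, and for POLR2J 33.5%, so the signal of these copies cannot be assigned to one locus. GTF2I shares 67.3% with other genes, its pseudogene GTF2IP1 96.7% and GTF2IRD2B 90.7%. POLR2M, which encodes the RNA polymerase II regulator Gdown1, shares 31.6% with the read-through gene GCOM1, and TAF9B is a paralog of TAF9. POLR2J3 kept 29.3% and 55.7% at 8 h in lines D and E, against 68.6% and 72.8% in shNS, like POLR2J itself above the median gene of every line.

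Those matched by symbol only held 2 calls higher and 2 lower by 12 h in shNS relative to the median gene. Over all genes the shares called were 24.6% and 27%. TAF15, an RNA-binding protein of the FET family, was not called and kept 34.5% and 35.0% at 8 h in lines D and E, against 61.2% and 56.2% in shNS. GTF2I and GTF2IRD2B were called higher and GTF2IP1 and GTF2IRD1 lower.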

How the data were processed

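Poly(A) RNA libraries were made with a stranded kit, per the labels' protocols. The authors deposited 1 table of a signal per gene, with no unit stated, for 9529 genes and 46 ERCC RNAs. STAR, RSEM and GRCh38 appear in the submitters' processing notes. Whether the signal was divided by length is not stated, so levels are not compared between genes. The labels' treatment protocol speaks of FTO virus and other drugs. Titles and groups, which name ALKBH5 hairpins and actinomycin D, were followed. Columns were matched to groups by name. Libraries of lines D and E carry the same letter at each time and deviated together (correlations of 0.78, 0.66 and 0.90). Percent left was therefore taken within each line. The limma fits by arm and time held no term for line. They took a common spread per gene over all groups, so a gap between lines D and E also widens the shNS standard errors. For those fits, pairing by line entered only in the replicate blocks among the alternatives.

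All genes were tested together with limma 3.58.1 (R 4.3.3) on log2(signal + 1) with a variance trend, 1 mean per group. Genes needed a mean signal of at least 1 (the lowest was 1.30, so none was removed). Relative changes used median-of-ratios scaling. The test was checked on simulated data. Coordinates, 3′ UTRs and 50-base sharing came from 1 coding transcript per gene of GENCODE 29, which held 98 of 99 members. POLR2A's transcript there is partial.

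Alternatives were another pseudocount (0.1), a filter at 5, no trend, other scalings, each library or line left out and replicate blocks. Members and lists were chosen with earlier results of these data known. Named were the largest subunits, GTF2B, GTF2H1, GTF3C1, MED1, MED12, MED13, MED14 and TAF1, all called members up to 12 per comparison and otherwise the 6 largest in each direction, with further members named to describe a complex after their values were seen. POLR3B and MED26 were not analysed here. The values of 1 member, which stays in the counts, and of 1 marker are not reported here.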

Additional observations from a re-analysis of the deposited data

Results flagged for a closer look

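The hairpin lines differed from each other, by limma over the 3 times in the same contrast, in 12 members singled out for size. Line D was lower than line E in POLR1D by −1.19, MED20 by −1.10, MED25 by −1.02, GTF2H4 by −0.89, POLR2J3 by −0.88 and MED13L by −0.72 (log2). Line D was higher in TAF3 by 0.68, TAF13 by 0.69, POLR2J by 0.81, POLR2L by 0.91, GTF3A by 1.03 and GTF3C6 by 1.32. Adjusted p ranged from 1.58e-10 for GTF3C6 to 0.00169 for TAF13, whose call was lost without line D at 12 h or line E at 8 h. GTF2H4, POLR2J3 and POLR2J share most or part of their sequence with other genes. POLR1D, POLR2L and TAF13 were also called between knockdown and shNS, and in each the difference was larger in line D. The part of the hairpin, the line or the library in these differences was not tested, and with 1 line for each hairpin they cannot be told apart.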

How the results depend on the processing

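Counts below are of 99 members and show how far they move with the processing. Shares over all genes are not given beside them here, so they are not read as a result about the members. With a pseudocount of 0.1 the 0 h knockdown count was 0 and that across times 3. With median-of-ratios scaling they were both 0, the shNS changes by 8 and 12 h fell to 45 and 52, and line D minus line E gave 49. In that scaling, which centres the median gene, 44 shNS changes by 8 h and 42 by 12 h were positive, against 0 on the deposited scale, among them GTF2H1 (0.037), MED14 (0.064) and TAF1 (0.17) by 8 h and GTF2H1 (0.068) and TAF1 (0.077) by 12 h. With line D alone the count at 0 h was 56, the relative changes by 8 and 12 h in knockdown 79 and 78, and the differences of change 66 and 13. With line E alone the 0 h count was 12 and the differences of change 3 and 1. Across times, 0 members were called without the 0 h or without the 8 h libraries, and 14 with 12 libraries taken as independent. Same-numbered shNS libraries deviated together with correlations of 0.27, 0.07 and 0.14, 1 of them under 0.1. The shNS numbers were therefore not taken to pair libraries in the main limma fits by arm and time. Percent left in shNS, and the shNS means across times, still joined libraries of the same number, so they rest on that weak pairing. A replicate block gave 69 for the shNS relative change by 8 h, 74 for the knockdown relative change by 12 h and 30 and 3 for the differences of change, and 2 at 12 h with median-of-ratios scaling as well, which was added after seeing the data. A correlation within lines gave 7 across times. Leaving out 1 library at a time gave 0 to 14 at 0 h, 0 to 26 across times, 74 to 91 and 99 to 99 for the shNS changes, 23 to 53 and 35 to 61 for their relative forms, 36 to 51 and 37 to 51 in knockdown, 0 to 0 for both differences of change and 12 to 47 between lines. The filter could not be removed further, as no gene was below it. Depth is unknown and 2 libraries per group limit the precision.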
